A study of Mus musculus with 6 samples.

Results

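Tetraspanins were described in the livers of FRG mice, starting from 10 listed genes: Cd9, Cd63, Cd81, Cd82, Cd151, Cd37, Cd53, Tspan4, Tspan8 and Tspan12. The genes were chosen by the log2 fold change of Cd9 in these same arrays, its large rise after the drug NTBC was withdrawn, to see how far the rest of the family shared it, so the values of Cd9 are given as a description and without a test. Its members were all probe sets whose only gene symbol in the array annotation was a listed gene. This gave 21 of the 45037 probe sets on the array, for 9 of the 10 genes. No probe set named Cd63 alone, and Cd63 was not analysed here.

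RNA of whole livers from 6 male mice was measured on Affymetrix whole-genome arrays for the mouse, each mouse on an array of its own. All mice were FRG mice on a C57Bl/6J background, in which Fah, an enzyme at the end of the tyrosine pathway, is deleted together with Rag2 and Il2rg, without which mature T, B and NK cells do not form. The 3 FRG-7dNTBC mice had their NTBC stopped at the age of 11 weeks and were without it for 7 days. The 3 FRG+NTBC mice drank water with 16 mg/L NTBC throughout, a drug that blocks an enzyme upstream of Fah and so keeps toxic tyrosine products from forming. All mice were 12 weeks old at collection and ate chow low in tyrosine and phenylalanine, and the labels call the mice of a group biological replicates. Both groups thus carry all 3 deletions, Fah-/-, Rag2-/- and Il2rg-/-, and neither is a wild-type liver.

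Tetraspanins are small proteins that cross the membrane 4 times and gather integrins, proteases, growth factor precursors and each other into patches of the cell surface. They have no enzyme activity of their own, and they act by deciding where their partners sit and how fast these move through endosomes. CD9, CD63 and CD81 are also the usual marker proteins of extracellular vesicles. In the liver, CD81 and claudin-1 are known in human hepatocytes as entry factors of hepatitis C virus, CD9 and CD151 are found on several epithelial and endothelial cells, and CD37 and CD53 belong to white blood cells.

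The promoters of Cd9, Cd151 and Tspan4 are shown because these genes carry the pattern described here, the outlying rise, a smaller rise and a fall, and because Cd151 and Tspan4 lie close together on chromosome 7 with only Polr2l between them in the RefSeq gene order. Each sequence runs 5′ to 3′ on the strand of the gene, from 250 bases before to 50 bases after the start of transcription, and comes from RefSeq on GRCm38.p6. All 10 listed genes had such a window, 15 windows in all, since some genes have several starts. Capitals mark the GC box GGGCGG on either strand, so that a box on the opposite strand reads CCGCCC. The windows lie at chr6:125494711-125495010 on the minus strand for Cd9, at chr7:141467112-141467411 on the plus strand for Cd151 (window 1 of 2) and at chr7:141474986-141475285 on the plus strand for Tspan4 (window 1 of 2).
Cd9: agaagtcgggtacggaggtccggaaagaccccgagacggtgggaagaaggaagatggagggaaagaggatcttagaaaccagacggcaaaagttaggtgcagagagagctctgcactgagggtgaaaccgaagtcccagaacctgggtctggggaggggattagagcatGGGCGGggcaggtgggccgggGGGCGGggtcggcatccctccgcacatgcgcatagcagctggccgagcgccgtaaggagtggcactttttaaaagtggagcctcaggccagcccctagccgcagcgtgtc
Cd151: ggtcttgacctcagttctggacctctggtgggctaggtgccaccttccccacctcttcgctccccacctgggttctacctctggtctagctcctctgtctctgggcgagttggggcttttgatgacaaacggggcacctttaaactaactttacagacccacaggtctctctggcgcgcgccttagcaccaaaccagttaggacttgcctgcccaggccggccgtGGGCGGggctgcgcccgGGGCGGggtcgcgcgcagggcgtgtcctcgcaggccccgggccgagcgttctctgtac
Tspan4: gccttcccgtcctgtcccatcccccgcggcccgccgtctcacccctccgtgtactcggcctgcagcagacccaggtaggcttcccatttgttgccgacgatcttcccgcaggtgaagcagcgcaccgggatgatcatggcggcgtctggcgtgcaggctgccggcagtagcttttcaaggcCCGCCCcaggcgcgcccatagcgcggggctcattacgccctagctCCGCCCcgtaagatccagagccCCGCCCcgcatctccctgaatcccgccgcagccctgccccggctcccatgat

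All 3 windows held GC boxes and many CpG dinucleotides. There were 2 boxes on the gene's strand in the Cd9 window, 2 on the gene's strand in the Cd151 window and 3 on the opposite strand in the Tspan4 window. The Cd9 window had 18 CpGs and a GC content of 61.3%, the Cd151 window 20 CpGs and 64.3%, and the Tspan4 window 29 CpGs and 68.7%, where the median over all 32851 promoter windows was 7 CpGs. A GC box was in 7 of the 15 member windows and in 35.7% of all windows. The antioxidant response element core TGACNNNGC (in 12.4% of all windows), the AP-1 site TGANTCA (in 7.81%) and TATAAA (in 13.6%) were searched on both strands without overlap between motifs being removed, and none was in these 3 windows. Of the windows not shown, window 2 of Cd151 and window 2 of Tspan4 held no GC box, and that of Tspan4 held 1 AP-1 site. The window of Cd81, which did not pass, held 3 GC boxes and 1 TATAAA. GC boxes were thus in promoter windows of a gene higher after withdrawal, of a gene lower and of a gene that did not pass.

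The arrays of a group resembled each other closely, with correlations of 0.98 to 0.99 over all probe sets among FRG-7dNTBC mice and 0.988 to 0.993 among FRG+NTBC mice, against 0.93 to 0.955 between the groups. Hepatocyte markers were bright in every mouse, summing to 84117 to 85752 in FRG-7dNTBC livers and 88837 to 91573 in FRG+NTBC livers over 5 genes, a sum carried by the secreted proteins Alb, Ttr and Apoa1. Of the 5, the hepatocyte regulator Hnf4a and the urea cycle enzyme Cps1 were lower (log2 fold changes -0.50 and -0.73, adjusted p = 0.0225 and 0.0103, limma). The deleted gene Rag2 was at 21.0, 21.4 and 18.0 in FRG-7dNTBC mice and 22.5, 21.4 and 16.5 in FRG+NTBC mice, and the deleted Fah, whose probes may lie outside the disrupted stretch, was at 119, 81.0 and 86.8 against 215, 182 and 197 (-1.07, adjusted p = 0.00258, limma). Since both groups carry both deletions, neither gene checks their labels. Of all probe sets, 14.0% were called higher and 13.9% lower in FRG-7dNTBC livers at an adjusted p under 0.05 (limma), with a median log2 fold change of -0.08. Intensities below are the deposited linear values, a log2 fold change is the FRG-7dNTBC mean minus the FRG+NTBC mean, and levels are not comparable between probe sets, which differ in how well they bind. The array measures tissue RNA, so fewer cells of a type and less RNA per cell cannot be told apart.

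Cd9, a tetraspanin of epithelia, platelets and endothelium that binds the membrane precursor of HB-EGF, stood far apart from the rest of its family. Its only probe set read 4299.6, 4039.6 and 2557 in FRG-7dNTBC mice, against 105, 121 and 134 in FRG+NTBC mice. All 3 mice without NTBC lay far above all 3 mice on NTBC, with replicate 3 the lowest of the FRG-7dNTBC mice and replicate 3 the highest of the FRG+NTBC mice. The log2 fold change was 4.89 (SE 0.21), or 29.7-fold, and it ranged between 4.75 and 5.13 over 14 other ways of processing. Over the whole array 16 probe sets, of 8 named genes, had a larger rise. Because Cd9 chose the list, these values are no evidence about the family.

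**Figure D1:**
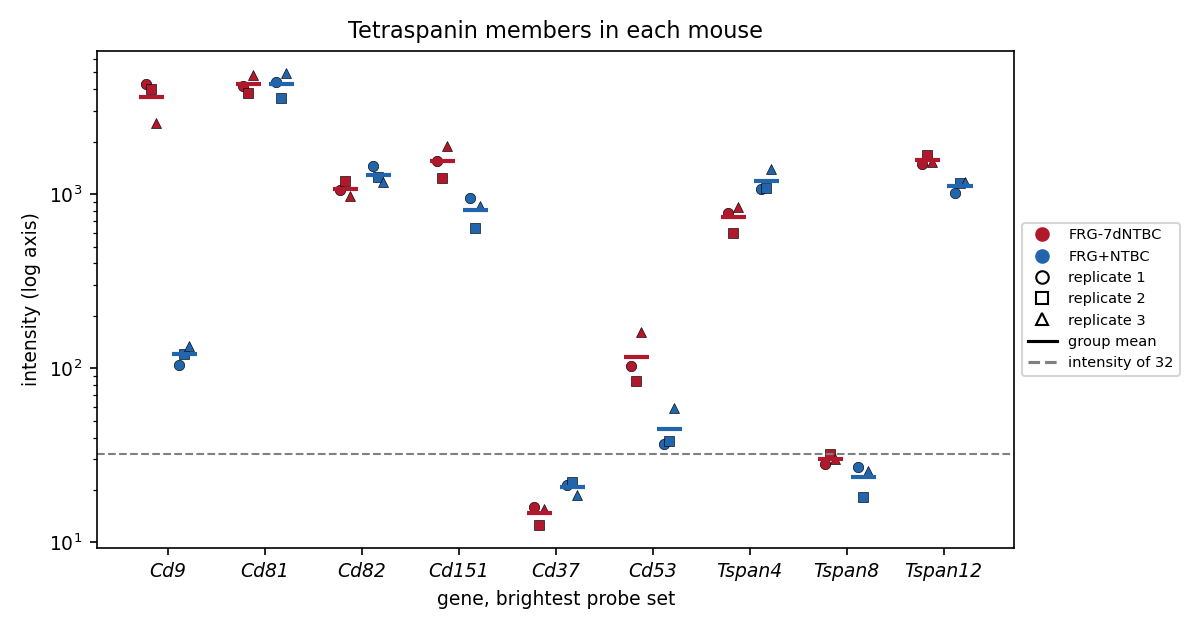
Intensity of the brightest probe set of each of the 9 measured genes on a log axis, with a symbol per mouse (circle, square and triangle for replicates 1, 2 and 3), FRG-7dNTBC mice in red to the left of FRG+NTBC mice in blue, a bar at each group's mean and a dashed line at an intensity of 32. Probe sets with both group means under 32 were treated as dim. Cd9 lies at 2557 to 4299.6 in FRG-7dNTBC mice and at 105 to 134 in FRG+NTBC mice, while no other gene shows a gap of that size, and heights are not comparable between genes.

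The genes whose profile over the 6 arrays was most like that of Cd9 were Cdkn1a, Slc1a4, Mgst2, Cidec and Ptgr1. All probe sets with 1 gene symbol were searched, and Cdkn1a and Slc1a4 are given at a probe set that is not their brightest. Likeness was the root-mean-square difference of the log2 values after each probe set was centred on its own mean, which was 0.19 for Cdkn1a, 0.28 for Slc1a4, 0.31 for Mgst2, 0.34 for Cidec and 0.35 for Ptgr1 over 6 arrays. Cdkn1a encodes the cell cycle inhibitor p21, Slc1a4 a transporter of neutral amino acids, Mgst2 a membrane-bound glutathione transferase, Cidec a lipid droplet protein and Ptgr1 a reductase that acts on prostaglandins and lipid aldehydes. Cdkn1a, at 1795, 2048 and 1409 in FRG-7dNTBC mice and 40.8, 50.2 and 52.4 in FRG+NTBC mice, had the same order of mice as Cd9 in the FRG+NTBC group and put replicate 3 lowest in the FRG-7dNTBC group as Cd9 did. No other tetraspanin was among them. All 5 genes have a difference of like size between the groups, which this measure selects for, so the list is a description.

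Markers of cholangiocytes, platelets and endothelium, cell types known to carry Cd9, were set beside it. Of all genes at their brightest probe set, 17.4% were higher and 12.7% lower. None of the 5 measured cholangiocyte markers passed at its brightest probe set, with a summed intensity of 156 to 234 in FRG-7dNTBC livers and 188 to 221 in FRG+NTBC livers. A dimmer probe set of Epcam, which is among these markers, was higher (log2 fold change 0.56, adjusted p = 0.0265, limma). The cholangiocyte keratin Krt19 was at 45.6, 31.1 and 33.1 in FRG-7dNTBC livers and 53.8, 37.3 and 41.4 in FRG+NTBC livers, and Sox9, which also marks progenitor cells, at 86.2, 55.3 and 103 against 53.5, 44.6 and 53.8 (adjusted p = 0.0685, limma). None of the 4 measured platelet markers passed either, with sums of 232 to 279 in FRG-7dNTBC livers and 230.3 to 264 in FRG+NTBC livers. Of 5 endothelial markers only Clec4g, a lectin of sinusoidal endothelium, passed (log2 fold change 0.74, adjusted p = 0.0289, limma). The endothelial sums were 1409 to 1717 in FRG-7dNTBC livers and 1014 to 1525 in FRG+NTBC livers. Among other lists measured, 3 of 7 macrophage markers were higher and are given with Cd53 below. Of 5 stellate cell markers only Lrat passed (log2 fold change 1.14, adjusted p = 0.0153, limma), and none of 4 neutrophil markers did. The part of these or other cell types in the Cd9 value was not tested.

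The other members followed Cd9 only in part, and none came near its size. Of the 20 member probe sets other than that of Cd9, 7 were higher, 2 lower and 11 did not pass, where 14.0% of all probe sets were higher and 13.9% lower. Their median log2 fold change was 0.09, beside -0.08 over all probe sets. Taking each gene at its brightest probe set, Cd53, Cd151 and Tspan12 were higher, Tspan4 and Cd37 lower, and Cd81, Cd82 and Tspan8 did not pass, where 17.4% of all 18193 genes were higher and 12.7% lower. The 4 higher probe sets of Cd151 share their transcript, so they are not separate findings.

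**Figure D2:**
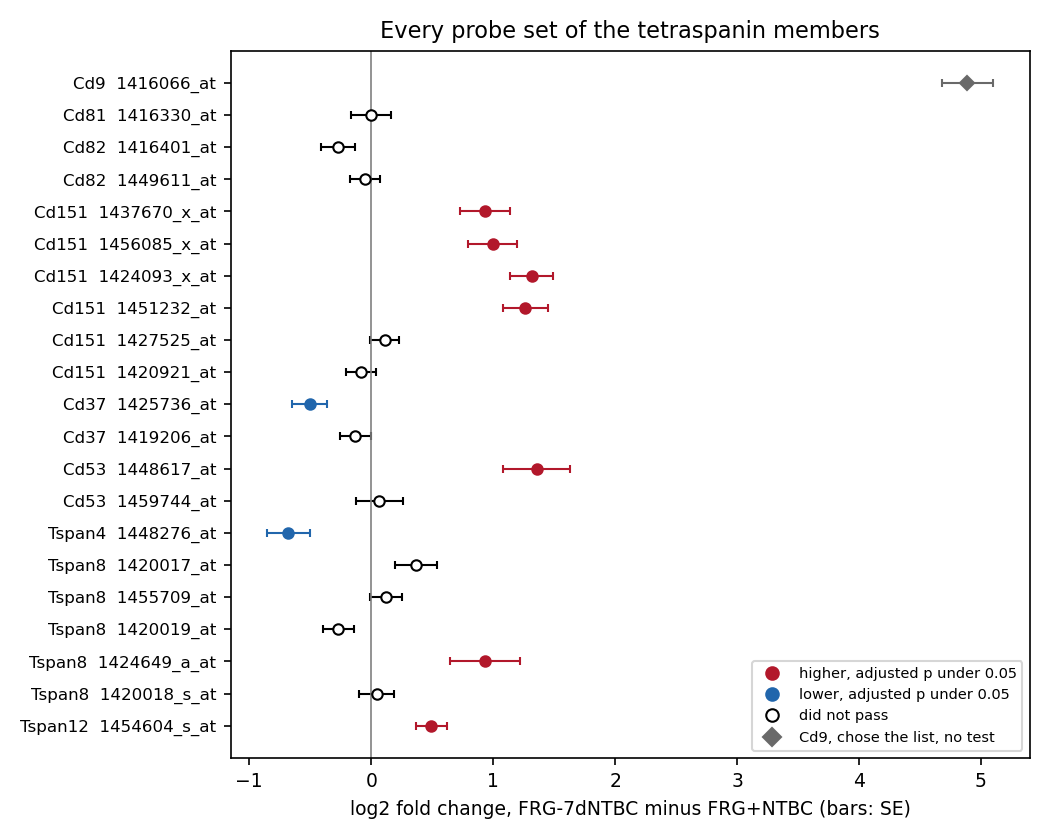
Log2 fold change (FRG-7dNTBC mean minus FRG+NTBC mean) of each of the 21 member probe sets, with the standard error as a bar. Filled red points are higher and filled blue points lower at an adjusted p under 0.05, open points did not pass, and the grey diamond is Cd9, which chose the list and has no test; next to Cd9 at 4.89, the other probe sets lie between -0.68 and 1.36.

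Cd151, which holds laminin-binding integrins at the cell base, was higher at 4 of its 6 probe sets, where 14.0% of all probe sets were. The clearest was 1424093_x_at, at 644, 671 and 648 in FRG-7dNTBC mice and 228, 232 and 343 in FRG+NTBC mice. The groups did not overlap, and the FRG-7dNTBC mice lay within a narrow range. The log2 fold change was 1.32 (SE 0.17, adjusted p = 0.00115, limma), or 2.49-fold.

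Probe set 1451232_at of Cd151 read 516, 537 and 516 in FRG-7dNTBC mice against 175, 205 and 288 in FRG+NTBC mice (log2 fold change 1.26, SE 0.19, adjusted p = 0.00185, limma). The brightest probe set, 1437670_x_at, read 1541, 1243 and 1885 against 949, 639 and 855 (0.93, SE 0.20, adjusted p = 0.0111), and 1456085_x_at differed by 0.997 on the log2 scale (SE 0.20, adjusted p = 0.0076). The groups did not overlap at these 4, which were taken because they passed, so this is no added support. The calls of the brightest and of 1456085_x_at were lost without moderation of the variances (adjusted p = 0.0837 and 0.0708), and 3 of the 4 are of the _x_at kind, whose probes can bind several transcripts. Probe sets 1427525_at and 1420921_at had log2 fold changes of 0.11 and -0.08 and did not pass (adjusted p = 0.529 and 0.65).

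None of the 4 measured genes of laminin-binding integrins, with which CD151 pairs, passed at its brightest probe set. Of all genes, 17.4% were higher and 12.7% lower. Itgb1, the shared beta chain, was at 564, 781 and 446 in FRG-7dNTBC mice and 311, 419 and 377 in FRG+NTBC mice. The groups did not overlap, but the log2 fold change of 0.67 missed the threshold (SE 0.22, adjusted p = 0.054, limma), and it passed without dim probe sets (adjusted p = 0.0434) and without replicate 3 of FRG-7dNTBC (0.86, adjusted p = 0.0137). Another Itgb1 probe set passed at 1.15 (adjusted p = 0.00417). Itga3 was at 189, 169 and 220 against 207, 154 and 182 (0.09, adjusted p = 0.714), and Itgb4 had -0.11 (adjusted p = 0.761). Itga6 differed among mice, at 120.3, 41.1 and 149 in FRG-7dNTBC mice and 56.1, 41.9 and 54.6 in FRG+NTBC mice (0.84, SE 0.43, adjusted p = 0.189), and it passed when replicate 2 of FRG-7dNTBC was left out (1.41, adjusted p = 0.00132). The other Itga6 probe set passed with all mice, at 116, 58.1 and 136 against 28.1, 25.8 and 42.2 (1.64, adjusted p = 0.00749).

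Tspan4, whose human protein is known for organising migrasomes on the trailing fibres of moving cells, was lower. Its single probe set read 776, 600.5 and 843 in FRG-7dNTBC mice and 1067, 1082 and 1399 in FRG+NTBC mice. Every mouse without NTBC lay below every mouse on it. The log2 fold change was -0.68 (SE 0.18, adjusted p = 0.0226, limma), a 1.60-fold lower level. This call is close to the threshold and was lost in 5 of 14 alternatives, among them leaving out replicate 2 or 3 of FRG+NTBC (adjusted p = 0.0527 and 0.0725) or replicate 1 or 2 of FRG-7dNTBC (0.0559 and 0.0539).

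Cd151 and Tspan4 therefore moved in opposite directions although they are neighbours. The genes that flank this pair were looked up after the values of the members were seen. Chid1, which follows Tspan4, was higher at 495, 413 and 402 in FRG-7dNTBC mice against 247, 251 and 294 in FRG+NTBC mice (log2 fold change 0.72, adjusted p = 0.00649, limma). Cracr2b, which precedes Cd151, did not pass (-0.06, adjusted p = 0.778), and no probe set named Polr2l alone. Next to Cd9 on chromosome 6, Plekhg6 and Vwf did not pass either (-0.47 and 0.57, adjusted p = 0.125 and 0.11).

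Tspan12, which strengthens signalling of the Norrin receptor Frizzled-4 in retinal endothelium, was higher by a modest amount. It read 1499, 1675 and 1520.2 in FRG-7dNTBC mice and 1010, 1160.1 and 1168 in FRG+NTBC mice. The groups did not overlap and the spread within each was small. The log2 fold change was 0.49 (SE 0.12, adjusted p = 0.0207, limma), or 1.41-fold. The call was lost in 6 of 13 alternatives, including scaling to a common 75th percentile (0.36, adjusted p = 0.0549), a repeated quantile normalization (0.33, adjusted p = 0.0676), and leaving out replicate 1 or 2 of either group (adjusted p of 0.0525 to 0.0623).

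Fzd4, the receptor that TSPAN12 assists, went the other way. It read 402, 236 and 428 in FRG-7dNTBC mice and 1168, 820.3 and 832 in FRG+NTBC mice. No mouse of either group came near the other group, and the log2 fold change was -1.43 (SE 0.25, adjusted p = 0.0041, limma). The call was lost without moderation (adjusted p = 0.0628), and a dimmer Fzd4 probe set stood at -0.59 (adjusted p = 0.0546). The co-receptor Lrp5 and the ligand Ndp did not pass (0.17 and -0.16, adjusted p = 0.562 and 0.474).

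Cd53, a tetraspanin of all white blood cell lineages, was higher at its brighter probe set. It read 103, 84.5 and 162 in FRG-7dNTBC mice and 36.8, 38.3 and 59.3 in FRG+NTBC mice. All mice without NTBC lay above all mice on it, and replicate 3 was the highest in both groups. The log2 fold change was 1.36 (SE 0.27, adjusted p = 0.00784, limma), or 2.56-fold, and it passed in every alternative except without moderation (adjusted p = 0.0847). The other probe set stayed at 5.82 to 9.32 in all mice (log2 fold change 0.07, adjusted p = 0.829), and the mean of both gave 0.71.

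Markers of white blood cells moved unevenly beside Cd53. None of the 3 genes shared by all leukocytes passed, where 17.4% of all genes were higher and 12.7% lower. The sums of these 3 genes were 397, 216 and 837 in FRG-7dNTBC livers and 342, 304 and 363 in FRG+NTBC livers. Ptprc, which encodes CD45, was at 127, 85.0 and 296 against 66.7, 63.6 and 100.4 (log2 fold change 0.97, adjusted p = 0.124, limma). Among the mice without NTBC, replicate 3 was highest and replicate 2 lowest for Cd53, for Ptprc and for the leukocyte sum alike. This order was not particular to leukocytes, since the stellate cell sums had it too (1685, 809 and 1999). Macrophage and neutrophil sums shared it, while hepatocyte, cholangiocyte, B cell, platelet and endothelial sums did not.

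Of 7 macrophage markers 3 were higher, where 17.4% of all genes were. Cd68, a lysosomal protein of macrophages, was at 154, 125 and 107 in FRG-7dNTBC livers against 30.1, 23.4 and 28.4 in FRG+NTBC livers (log2 fold change 2.23, adjusted p = 0.000126, limma), C1qa had 1.15 (adjusted p = 0.0239) and Marco 1.09 (adjusted p = 0.0291). Adgre1, Clec4f, Csf1r and Lyz2 did not pass, and the sum of the list was 2977, 1613 and 4405 against 1675, 1911 and 2489, so the groups overlapped. The part of white blood cells in the Cd53 value was not tested.

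**Figure D3:**
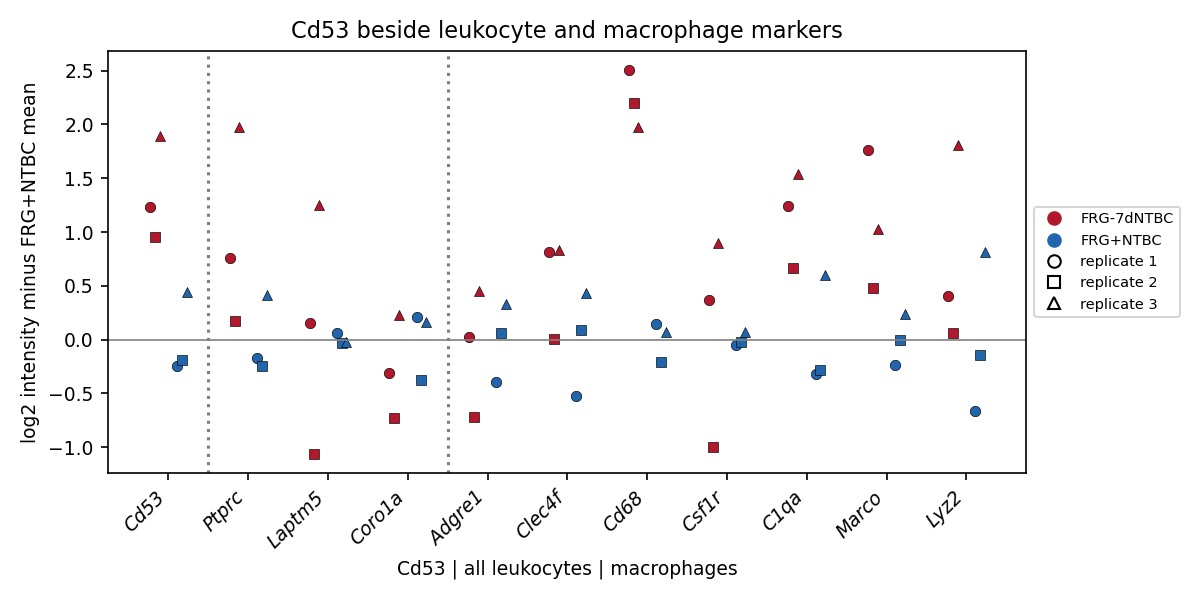
Log2 intensity of Cd53, of 3 genes shared by all leukocytes and of 7 macrophage genes in each mouse, minus the mean of the FRG+NTBC mice for that gene, with FRG-7dNTBC mice in red to the left of FRG+NTBC mice in blue and a symbol per replicate. Cd53, Cd68, C1qa and Marco separate the groups, with log2 fold changes of 1.36, 2.23, 1.15 and 1.09, while Ptprc, Laptm5, Coro1a, Adgre1, Clec4f, Csf1r and Lyz2 overlap. The triangle of FRG-7dNTBC replicate 3 is the highest red point for every gene shown except Cd68 and Marco.

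Cd37, a tetraspanin mainly of B cells that also binds the beta-glucan receptor dectin-1, lay at the dim end of the scale. Probe set 1425736_at read 15.9, 12.6 and 15.6 in FRG-7dNTBC mice and 21.4, 22.2 and 18.6 in FRG+NTBC mice. The groups did not overlap, and the log2 fold change of -0.50 passed (SE 0.14, adjusted p = 0.0337, limma), but all 6 values are under the intensity of 32 taken as dim, and the call was lost in 8 of 13 alternatives, among them leaving out replicate 1 or 2 of FRG-7dNTBC (adjusted p = 0.0581 and 0.0904) or replicate 1 or 2 of FRG+NTBC (0.0904 and 0.116). The second probe set had -0.13 (adjusted p = 0.494). B cell markers, whose cells Rag2 loss removes, were as dim, with sums over 3 genes of 63.0 to 70.0 in FRG-7dNTBC livers and 64.9 to 69.0 in FRG+NTBC livers. None of these 3 passed, where 17.4% of all genes were higher and 12.7% lower.

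Clec7a, which encodes dectin-1, was at 657, 197 and 1898 in FRG-7dNTBC mice and 146, 172 and 164 in FRG+NTBC mice. All FRG-7dNTBC mice lay above the FRG+NTBC mice, but they differed so much among themselves that the log2 fold change of 1.96 missed the threshold (SE 0.68, adjusted p = 0.0649, limma). Without FRG-7dNTBC replicate 2, the mouse with the lowest leukocyte sum, it was 2.80 (adjusted p = 0.00157), and with all mice it passed without dim probe sets (adjusted p = 0.0448) and with an intensity trend and robust moderation (0.0495).

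Cd81, a tetraspanin found on hepatocytes and many other cells, showed no difference that passed. It read 4182, 3822 and 4837 in FRG-7dNTBC mice and 4390, 3566 and 4939 in FRG+NTBC mice. The groups overlapped fully, and the log2 fold change was 0.00 (SE 0.16, adjusted p = 1, limma), between -0.15 and 0.11 over 14 alternatives. The probe set is among the brightest on the array, above 98.8% of all probe sets in mean level. Its neighbours on chromosome 7 were Tspan32, which did not pass (-0.39, adjusted p = 0.061) but did so after scaling to a common 75th percentile (-0.52, adjusted p = 0.026), after a repeated quantile normalization (-0.53, adjusted p = 0.0285) and without replicate 3 of FRG+NTBC (-0.49, adjusted p = 0.0425), and Tssc4, which was higher (0.90, adjusted p = 0.01).

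Cd82, known as KAI1 and as a suppressor of metastasis, did not pass at either probe set. The brighter read 1053, 1184 and 976 in FRG-7dNTBC mice and 1448, 1261 and 1176 in FRG+NTBC mice. The groups overlapped between replicate 2 of FRG-7dNTBC and replicate 3 of FRG+NTBC. The log2 fold change was -0.27 (SE 0.14, adjusted p = 0.183, limma), and it passed only after a repeated quantile normalization (-0.44, adjusted p = 0.0495). The other probe set had -0.05 (adjusted p = 0.799), and Tspan18, the neighbour of Cd82, had 0.02 (adjusted p = 0.909).

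Tspan8, a tetraspanin of gut, pancreatic and other secretory epithelia, was dim at all 5 of its probe sets. The brightest read 28.3, 32.2 and 30.1 in FRG-7dNTBC mice and 27.1, 18.3 and 25.8 in FRG+NTBC mice (log2 fold change 0.37, SE 0.17, adjusted p = 0.154, limma). Probe set 1424649_a_at read 15.9, 8.94 and 21.9 in FRG-7dNTBC mice and 7.57, 7.52 and 7.84 in FRG+NTBC mice, and passed at 0.93 (SE 0.29, adjusted p = 0.0446). The 3 mice without NTBC differed among themselves more than replicate 2 differed from the mice on NTBC, and the call was lost in 7 of 12 alternatives, among them leaving out any mouse except replicate 2 of FRG-7dNTBC (adjusted p of 0.0761 to 0.132). The other 3 probe sets had log2 fold changes of 0.12, -0.27 and 0.05 and did not pass (adjusted p = 0.541, 0.159 and 0.841).

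Beyond the listed genes, 20 of 21 further tetraspanins had a probe set of their own, Tspan7 being not analysed here. At their brightest probe sets 3 were higher and 16 did not pass, while Tspan33 alone was lower, where 17.4% of all genes were higher and 12.7% lower. Their median log2 fold change was -0.01, beside -0.05 over all genes. Across the 28 measured tetraspanins other than Cd9, 6 were higher, 3 lower and 19 did not pass. At dimmer probe sets Tspan13 was higher (log2 fold change 0.69, adjusted p = 0.0209, limma) and Upk1b lower (-0.86, adjusted p = 0.00664). Their brightest probe sets did not pass (-0.05 and -0.61, adjusted p = 0.911 and 0.131).

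**Figure D4:**
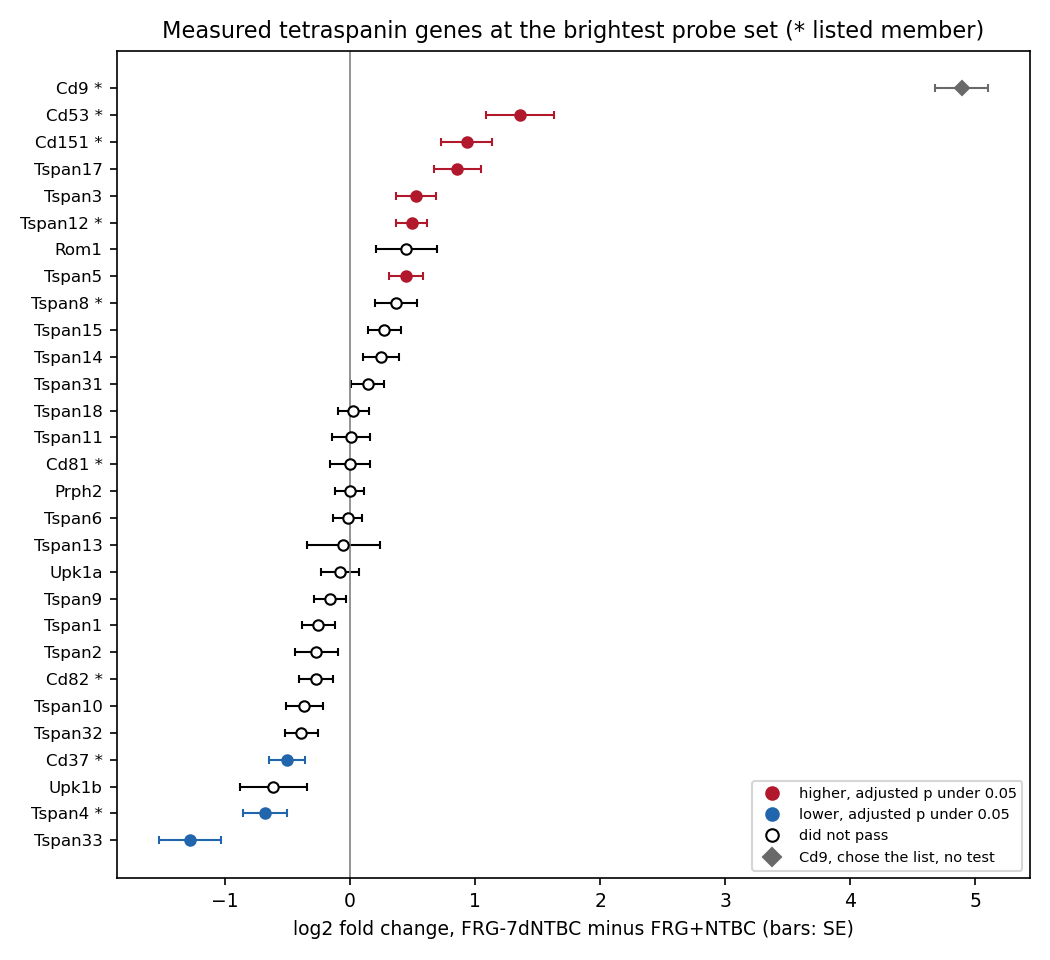
Log2 fold change (FRG-7dNTBC mean minus FRG+NTBC mean) of all 29 measured tetraspanin genes at their brightest probe sets, sorted from the largest rise to the largest fall, with the standard error as a bar and an asterisk on the listed genes. Filled points passed an adjusted p under 0.05, in red when higher and in blue when lower, open points did not, and the grey diamond is Cd9, given without a test; apart from Cd9 at 4.89 the genes lie between -1.28 for Tspan33 and 1.36 for Cd53.

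The TspanC8 group holds 6 tetraspanins that carry the protease ADAM10 out of the endoplasmic reticulum and direct it to its substrates. In this group Tspan17 and Tspan5 were higher, Tspan33 was lower, and Tspan10, Tspan14 and Tspan15 did not pass. Tspan17 was at 208, 157 and 136 in FRG-7dNTBC mice and 77.2, 100.4 and 96.3 in FRG+NTBC mice (log2 fold change 0.86, SE 0.19, adjusted p = 0.0111, limma). Its other probe set gave 160, 111 and 73.0 against 28.1, 30.1 and 30.1, a larger difference of 1.89 (SE 0.26, adjusted p = 0.00128). Neither overlapped between the groups, and the call at the brightest was lost only without moderation (adjusted p = 0.0781).

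Tspan33, which in mice is needed for red cell formation, was lower at 3 of 4 probe sets, where 13.9% of all probe sets were. The brightest read 195, 170.1 and 190.02 in FRG-7dNTBC mice and 315, 662 and 437 in FRG+NTBC mice. The mice without NTBC were close together and all below the mice on it, which spread widely (log2 fold change -1.28, SE 0.25, adjusted p = 0.0065, limma). This call was lost without moderation (adjusted p = 0.0755). Probe set 1451608_a_at gave -1.08 (adjusted p = 0.00473). In 1425157_x_at the groups overlapped (-0.85, adjusted p = 0.0485), and 1451609_at did not pass (-0.56, adjusted p = 0.122).

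Tspan5 was higher at a low intensity, 43.7, 35.5 and 40.0 in FRG-7dNTBC mice against 30.7, 26.2 and 30.7 in FRG+NTBC mice (log2 fold change 0.44, SE 0.14, adjusted p = 0.0439, limma), and this call was lost in 8 of 13 alternatives, among them leaving out any mouse except replicate 2 of FRG-7dNTBC (adjusted p of 0.0721 to 0.147). Tspan3, outside the TspanC8 group, read 211, 158 and 171 against 108, 128 and 137 (0.53, SE 0.16, adjusted p = 0.0396), and was lost in 10 of 13, among them the same 5 single mice (adjusted p of 0.0545 to 0.131). Both are thus at the edge of the threshold. Tspan31, a bright tetraspanin gene in all 6 mice, read 6295, 5557 and 5043 in FRG-7dNTBC mice and 5330.3, 5113 and 4837 in FRG+NTBC mice and did not pass (0.14, adjusted p = 0.467), nor did Tspan9 (-0.16, adjusted p = 0.398).

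Genes whose proteins bind or act with tetraspanins were described next to the family. Of 22 measured partners, Pdcd6ip has probe sets that went both ways and is given no direction. Of the other 21, 7 were higher and 13 did not pass at the brightest probe set, while Fzd4 alone was lower, where 17.4% of all genes were higher and 12.7% lower, and their median log2 fold change was 0.67, beside -0.05 over all genes. The partner list was written with results of these arrays known, so its count is a description.

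The sheddases Adam17 and Adam10 and the growth factor precursor Hbegf were higher, where 17.4% of all genes were. Hbegf, whose membrane-bound product associates with CD9, was at 115, 82.7 and 99.7 in FRG-7dNTBC mice and 44.6, 38.1 and 35.3 in FRG+NTBC mice. The groups were well apart, and the log2 fold change was 1.33 (SE 0.16, adjusted p = 0.000812, limma). Adam17, the protease that cuts this precursor free, was at 242, 231 and 187 against 118, 109.9 and 117 (0.93, SE 0.14, adjusted p = 0.00187). Adam10, the partner of the TspanC8 group, was at 1024, 949 and 1409 against 458, 657 and 798 (0.84, SE 0.23, adjusted p = 0.0307), a call lost in 6 of 13 alternatives, among them leaving out replicate 1 or 3 of FRG-7dNTBC or replicate 1 or 2 of FRG+NTBC (adjusted p of 0.0651 to 0.0815). Of the 4 Adam10 probe sets 2 were higher, where 14.0% of all probe sets were, and the log2 fold changes ranged from -0.34 to 1.69 over all 4.

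Among the genes of vesicle formation, Sdcbp and Tsg101 were higher. Sdcbp, which encodes syntenin, a binding partner of CD63, was at 1193, 1418 and 1121 in FRG-7dNTBC mice and 413, 396 and 512 in FRG+NTBC mice (log2 fold change 1.50, SE 0.15, adjusted p = 0.000389, limma). Its probe set 1430528_at was higher too (1.57, adjusted p = 0.000199), while 1450941_at did not pass (0.32, adjusted p = 0.175). Tsg101, of the endosomal sorting machinery, was at 455, 609 and 458 against 241, 231 and 292 (0.99, SE 0.16, adjusted p = 0.00321). No FRG-7dNTBC mouse overlapped with an FRG+NTBC mouse in either gene. Timp1, a ligand of CD63, did not pass (0.08, adjusted p = 0.793).

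Pdcd6ip, which encodes the syntenin partner ALIX, gave opposite results by probe set. The brightest, 1449674_s_at, read 838, 1031 and 714 in FRG-7dNTBC mice and 254, 236 and 300.3 in FRG+NTBC mice (log2 fold change 1.70, SE 0.17, adjusted p = 0.000355, limma). Probe set 1448155_at read 195, 272 and 322 against 512, 855 and 826, a fall (-1.47, SE 0.25, adjusted p = 0.00365). Of its 5 probe sets 3 were higher and 2 lower, so no direction is given for the gene.

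Among the partners at epithelial surfaces, Cldn1 had the largest difference of the list. Cldn1, which encodes the tight junction protein claudin-1, was at 1438, 1574 and 1663 in FRG-7dNTBC mice and 189, 410.2 and 419 in FRG+NTBC mice (log2 fold change 2.29, SE 0.29, adjusted p = 0.000974, limma). A second probe set gave 3.03 (adjusted p = 8.49e-05), and the 2 others lay between 5.46 and 7.84 in all mice. Epcam did not pass at its brightest probe set (-0.26, adjusted p = 0.345), while a dimmer probe set was higher (0.56, adjusted p = 0.0265). Cd44 likewise did not pass at its brightest (0.93, adjusted p = 0.0908, limma), while 1434376_at was higher (1.66, adjusted p = 0.0205).

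The immunoglobulin proteins bound most directly by CD9 and CD81 differed from each other. Ptgfrn, also called CD9P-1, was at 97.7, 82.7 and 88.7 in FRG-7dNTBC mice and 52.4, 44.9 and 34.5 in FRG+NTBC mice (log2 fold change 1.05, SE 0.17, adjusted p = 0.0031, limma). Its relative Igsf8 was at 136, 107 and 139 against 126, 100.4 and 108 and did not pass (0.19, adjusted p = 0.406). Ptgfrn separated the groups at this probe set, while Igsf8 overlapped. A dimmer Ptgfrn probe set overlapped and did not pass (0.38, adjusted p = 0.192).

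**Figure D5:**
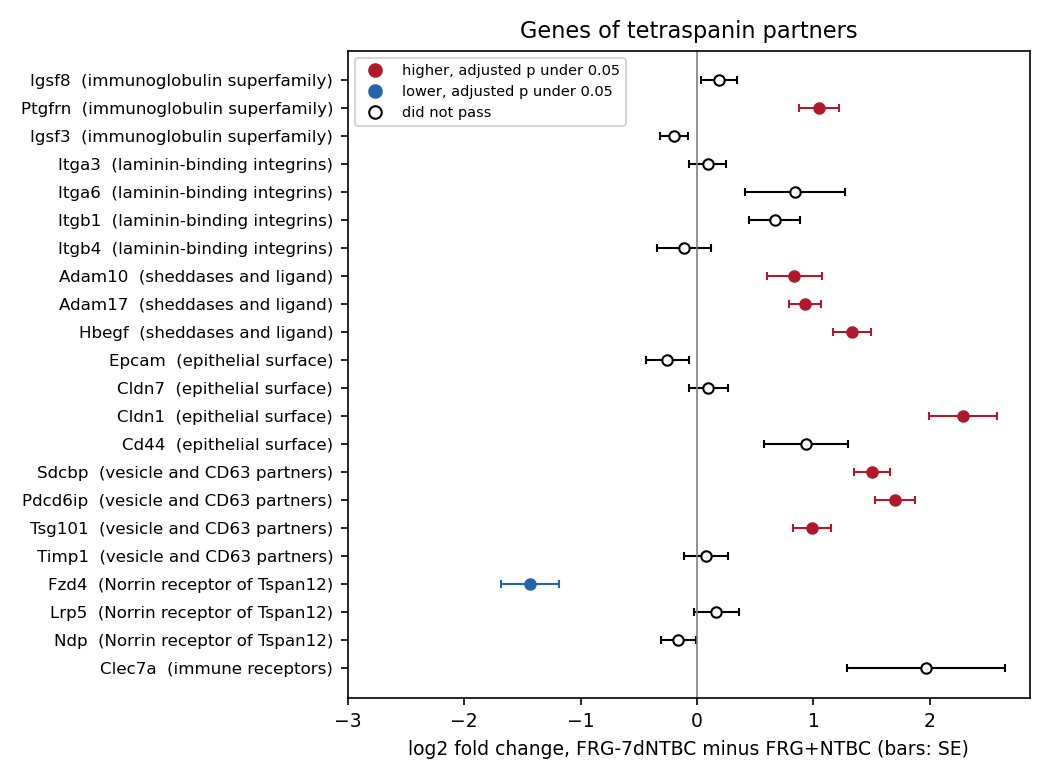
Log2 fold change (FRG-7dNTBC mean minus FRG+NTBC mean) of the 22 measured partner genes at their brightest probe sets, with the standard error as a bar and the kind of partner in brackets. Filled points passed an adjusted p under 0.05, red when higher (up to 2.29 for Cldn1; the red point of Pdcd6ip is its brightest probe set, while 2 others of its 5 were lower) and blue when lower (Fzd4 at -1.43), and open points did not pass, including Clec7a at 1.96 with a wide bar.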

How the data were processed

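Arrays of 3 FRG-7dNTBC and 3 FRG+NTBC livers were compared. The authors made the deposited intensity values by Robust Multiarray Analysis, that is with background corrected, arrays normalized by quantiles and probes summed by median polish. The Transcriptome Analysis Console is named in the submitters' processing notes. The deposited values above 100 all equal powers of 2 with an exponent of 2 decimals, within 0.01, so steps below that size in log2 are lost, and quantile normalization assumes a similar spread of RNA levels in all livers. No detection calls were used, and the number of arrays limits the precision.

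Log2 of the intensity was fitted over all 45037 probe sets with limma 3.58.1 under R 4.3.3, using lmFit and eBayes with no covariates and Benjamini-Hochberg adjustment, and a probe set was called at an adjusted p under 0.05. The fit was first tested on simulated data with 200 changed probe sets. P-values rest on the spread between the mice. Probe sets were named from the array annotation, in which 34945 have 1 gene symbol, 932 several and 9160 none, and the latest RefSeq symbols changed 0 of them. Genes outside the member list were taken at their brightest probe set by mean log2 intensity, unless another probe set is mentioned. The search for genes like Cd9 instead used every probe set with 1 gene symbol. A probe set was left out as dim when its mean intensity was under 32 in both groups, so 1 group at or above 32 kept it in. A gene with several probe sets can differ between them. Promoter windows and gene order came from RefSeq.

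The members and all gene lists were chosen with earlier results of these data known. The text names every member at every probe set, and every other tetraspanin or partner that passed at its brightest probe set. It also names up to 4 well-known ones of each list that did not (Tspan31, Tspan9, Tspan32 and Tspan18, and Itgb1, Itga3, Epcam and Igsf8). The 5 genes most like Cd9 and the markers set beside a member are named as well. Tspan10, Tspan13, Tspan14, Tspan15, Upk1b, Itga6, Itgb4, Cd44, Clec7a, Lrp5, Ndp, Timp1, Lrat and the chromosomal neighbours Chid1, Cracr2b, Plekhg6, Vwf and Tssc4 were named after their values were seen. Alternatives were scaling to a common 75th percentile, a repeated quantile normalization, leaving out dim probe sets, no moderation of variances, an intensity trend with robust moderation, leaving out _x_at and _s_at probe sets, the replicate number as a block, averaging a member gene's probe sets, and leaving out each mouse in turn.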

Additional observations from a re-analysis of the deposited data

How the results depend on the processing

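Of the 21 member probe sets, 8 were higher and 2 lower, and each count of higher ones here includes that of Cd9, which chose the list and supports nothing. Other than Cd9, 7 of 20 were higher, where 14.0% of all probe sets were, 3 of 20 without moderation (6.97% of all) and 3 of 15 without _x_at and _s_at probe sets (13.7% of all). With limma but no moderation of variances 4 were higher and 0 lower (7 and 3 at an unadjusted p under 0.05), and without _x_at and _s_at probe sets 4 of 16 were higher. Lower calls numbered 1 without dim probe sets and 1 with the replicate block, and 0 to 2 when single mice were left out in limma (2 at an unadjusted p in each such fit), where higher calls numbered 6 to 7. Of the other tetraspanins, 3 were higher and 1 lower. Higher calls fell to 1 after scaling to a common 75th percentile, 1 with the replicate block, 1 to 3 without single mice and 0 without moderation (3 at an unadjusted p). Lower calls were 3 after that scaling, 2 after a repeated quantile normalization, 1 to 2 without single mice and 0 without moderation (2 at an unadjusted p). Of all probe sets, 11.9% were higher and 21.5% lower after that scaling, and 13.1% and 13.8% after the repeated quantile normalization. These shares were 6.97% and 7.41% without moderation and 13.5% and 11.7% with the replicate block. Without single mice 9.75% to 15.1% were higher and 8.58% to 14.2% lower. Lower partners numbered 1, against 0 without moderation (2 at an unadjusted p) and 2 without _x_at and _s_at probe sets, where Pdcd6ip is read by another probe set. Over the whole array the median log2 fold change was -0.21 after scaling and -0.08 before.

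The replicate numbers gave no sign of a pairing of the mice. Deviations of mice with the same number correlated at 0.11, 0.03 and -0.16, and those of mice with different numbers at -0.21 to 0.22. With 3 mice per group this check cannot exclude a pairing. With the replicate block Itgb1 also passed (adjusted p = 0.0398). With 3 arrays per group, differences near a log2 fold change of 0.5, such as those of Tspan12, Tspan3, Tspan5 and Cd37, sat at the edge of the threshold. Cd37, Tspan8 and the second Cd53 probe set were dim, which limits what can be read from them. No call at a given probe set was reversed, but Pdcd6ip turned to lower (-1.47, against 1.70) where its brightest probe set, an _s_at, was left out. The cause of the calls lost or gained was not tested.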
